A study of Mus musculus with 8 samples.

Results

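Nfe2l2, which encodes the transcription factor Nrf2, and 9 of its known target genes in glutathione and thioredoxin metabolism (Gclc, Gclm, Gsr, Srxn1, Txnrd1, Slc7a11, Prdx1, Osgin1 and G6pdx) were examined in lungs that had received carbon nanotubes. The genes were chosen by name, and each was read from the probe sets whose annotation gives its symbol alone. Of the 10 genes, 8 had such a probe set (18 probe sets in all), and 7 were tested among 13854 genes. Both probe sets of Slc7a11 lay below the array median on all 8 arrays, the 5 probe sets of Prdx1 were annotated with 2 symbols each, and no probe set of G6pdx was listed in the annotation used here. Prdx1 and G6pdx are therefore given no expression value.

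Lobe 1 of the right lung supplied the RNA; the mice were 5 to 6 weeks old males of the outbred ICR strain. Every mouse was anaesthetized with pentobarbital and had its trachea exposed through the neck for an intratracheal instillation. The SWCNT groups received 0.5 mg of single-walled carbon nanotubes suspended in 50 µl with 0.1% of the surfactant Pluronic F-68 (PF68), and the control groups received PF68 as the solvent. Lungs were taken on day 1 or day 7, with 2 arrays for each treatment and day, so that no group shows a lung without an instillation. The arrays of a group are labelled biological replicates, but the animals are not named, and their spread, the only one that enters a p-value, may be technical. The comparison of SWCNT with PF68 on each day sets the tubes against their solvent, with the day shared. RNA integrity also differs between these groups, as given below.

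Nrf2 is held in the cytoplasm and marked for degradation by Keap1. Oxidants and electrophiles modify Keap1, and Nrf2 then accumulates, pairs with small Maf proteins in the nucleus and binds antioxidant response elements near its target genes. The targets rebuild the reducing capacity of the cell. Gclc and Gclm form the enzyme of the rate-limiting step of glutathione synthesis, Slc7a11 imports the cystine it needs, and Gsr returns oxidized glutathione to its reduced form. Txnrd1 reduces thioredoxin, Prdx1 removes peroxides with electrons from thioredoxin, Srxn1 repairs over-oxidized peroxiredoxins, and G6pdx supplies NADPH to both systems. In the lung the pathway is known as a defence of airway and alveolar cells against inhaled oxidants and particles. Nrf2 is controlled largely through its protein, so the level of its mRNA is not a measure of its activity.

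The core of the antioxidant response element is TGACNNNGC, where N is any base. It was searched on both strands of promoters from RefSeq (GRCm38.p6), each spanning 250 bases before to 50 bases after an annotated start. The table held promoters of 8 of the 10 genes. A match lay in at least 1 promoter of 6 of these 8 genes, against 14% of all 27025 genes in the table, and in 12.4% of all 32851 promoters. The promoters of 4 genes with expression values are printed with the match in capitals, since these are the genes whose levels are compared with that of Nfe2l2 below. The match in Nfe2l2 reads TGACTCCGC on the strand of the gene, and the other 3 lie on the opposite strand.
Nfe2l2: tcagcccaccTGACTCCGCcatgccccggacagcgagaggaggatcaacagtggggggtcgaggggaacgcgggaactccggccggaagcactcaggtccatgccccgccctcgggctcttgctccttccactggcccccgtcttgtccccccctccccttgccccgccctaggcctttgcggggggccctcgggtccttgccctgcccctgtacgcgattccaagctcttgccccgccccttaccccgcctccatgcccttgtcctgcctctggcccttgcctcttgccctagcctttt
Gclm: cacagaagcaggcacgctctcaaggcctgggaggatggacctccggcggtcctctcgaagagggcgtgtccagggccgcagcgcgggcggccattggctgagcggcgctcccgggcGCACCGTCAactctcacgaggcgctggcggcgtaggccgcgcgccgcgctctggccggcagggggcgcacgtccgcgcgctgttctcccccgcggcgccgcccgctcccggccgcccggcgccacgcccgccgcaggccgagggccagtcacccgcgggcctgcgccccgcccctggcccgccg
Srxn1: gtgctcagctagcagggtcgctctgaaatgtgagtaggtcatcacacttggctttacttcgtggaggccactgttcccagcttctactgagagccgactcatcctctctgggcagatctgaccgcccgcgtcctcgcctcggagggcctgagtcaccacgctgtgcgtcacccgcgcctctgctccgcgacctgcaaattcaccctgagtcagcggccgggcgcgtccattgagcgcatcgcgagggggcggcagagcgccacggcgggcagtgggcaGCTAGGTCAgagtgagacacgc
Txnrd1: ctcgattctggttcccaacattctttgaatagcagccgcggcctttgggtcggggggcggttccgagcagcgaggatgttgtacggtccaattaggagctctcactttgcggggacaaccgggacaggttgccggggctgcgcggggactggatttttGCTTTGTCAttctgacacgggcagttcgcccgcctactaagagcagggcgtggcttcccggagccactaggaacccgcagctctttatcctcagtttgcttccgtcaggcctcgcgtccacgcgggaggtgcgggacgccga
The Nfe2l2 promoter is chr2:75704614-75704913 on the minus strand, and its match starts at position -240 from the start site. The Gclm promoter is chr3:122245307-122245606 on the plus strand, with the match at -134. The Srxn1 promoter is chr2:152105274-152105573 on the plus strand, with the match at 28, after the start site. The Txnrd1 promoter is chr10:82858956-82859255 on the plus strand, with the match at -92, and it is 1 of 3 promoters annotated for this gene. Prdx1 and G6pdx also held a match, at -133 and -57, whereas none lay in the promoter window of Slc7a11 or Osgin1. The match of Prdx1 overlaps the AP-1 motif TGACTCA. These matches describe the letters of the window, and no binding was measured.

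Nfe2l2 itself was higher in SWCNT than in PF68 lungs on day 7, the only member called in a comparison of SWCNT with its solvent. All values are on the deposited log2 scale, on which the array median is -0.63. On day 1 the signal of Nfe2l2 (chromosome 2, 75675513 to 75704663, GRCm38.p6) was 4.20 and 4.23 on the PF68 arrays and 4.37 and 4.32 on the SWCNT arrays. On day 7 it was 3.55 and 3.56 with PF68 and 4.16 on both arrays with SWCNT. Thus the PF68 lungs of day 7 stood below the 3 other groups, and no groups that are neighbours in level overlapped. The order was SWCNT on day 1, PF68 on day 1, SWCNT on day 7 and PF68 on day 7.

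The day 7 difference of Nfe2l2 was 0.60 ± 0.10 (SE) on the log2 scale, or 1.51-fold, with a 95% interval of 0.36 to 0.84 and an adjusted p of 0.0484 (limma, Benjamini-Hochberg over all genes). The call rested close to the threshold of 0.05. The adjusted p ranged from 0.000543 to 0.711 over the alternatives, and the call was lost when any 1 of the 8 arrays was left out, with differences of 0.59 to 0.60 and adjusted p-values of 0.0903 to 0.190. On day 1 the difference was 0.13 ± 0.10 (adjusted p = 0.544). The difference between the days was 0.47 ± 0.14 and did not pass the test (adjusted p = 0.137), so the effect is not shown to differ between them.

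**Figure D1:**
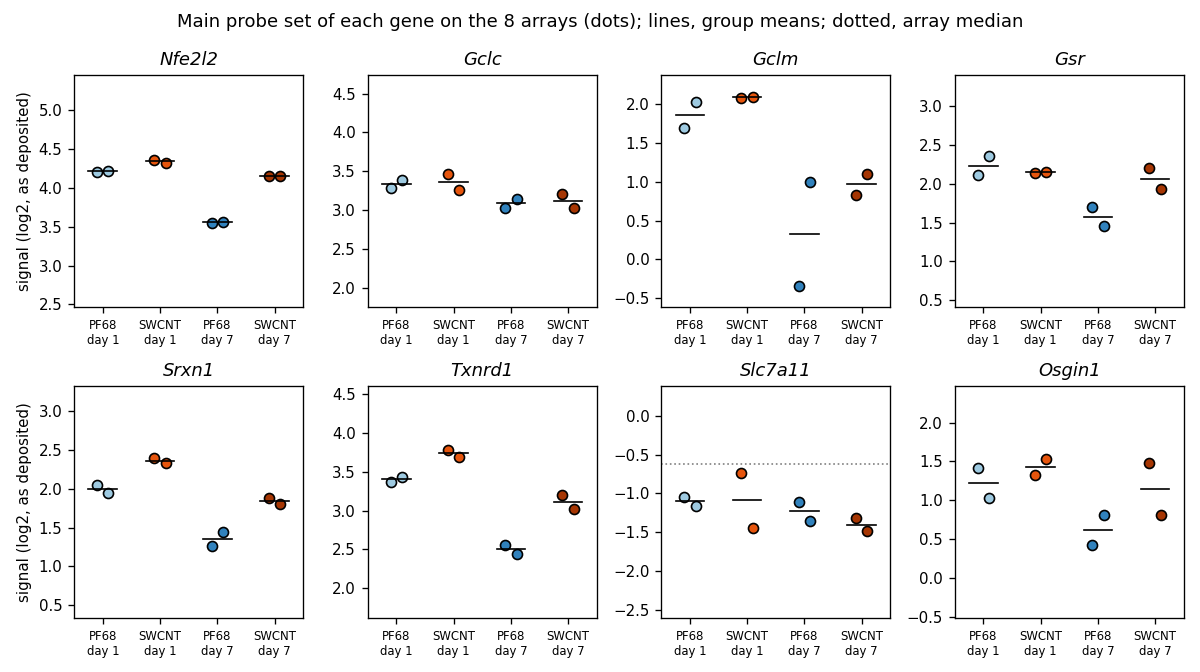
Log2 signal of the main probe set of each of the 8 genes on the 8 arrays, by treatment and day; dots are arrays, lines are group means and the dotted line in the Slc7a11 panel is the array median of -0.63. The PF68 arrays of day 7 are the lowest of the 4 groups for Nfe2l2, Srxn1, Txnrd1, Gsr and Osgin1, and all Slc7a11 arrays lie below the median. For Osgin1, 1 of them is level with an SWCNT array of day 7 to 2 decimals.

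A second probe set of Nfe2l2 was dim, at or above the array median on 2 of 8 arrays, those of PF68 on day 1. It differed by -1.11 on day 1 and 0.35 on day 7, so its direction was opposite to that of the main probe set on day 1. This probe set passed the filter through the group where it is high, which favours a lower reading with SWCNT on day 1. Its day 7 reading compares signals below the array median. Of all other genes, Samd1, Tbp and Srp72 had group means closest in pattern to those of Nfe2l2. Their root mean square differences over the 4 centred group means were 0.018, 0.019 and 0.020, and their day 7 differences were 0.57, 0.61 and 0.55. In all 254 genes lay within 0.1 of Nfe2l2 by this measure.

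The 2 tested genes of the thioredoxin system, Txnrd1 and Srxn1, had no overlap between groups that are neighbours in level, and neither passed the test against PF68. Txnrd1 (chromosome 10, 82833951 to 82897724), the cytosolic thioredoxin reductase, gave 3.37 and 3.44 with PF68 and 3.78 and 3.69 with SWCNT on day 1. On day 7 it gave 2.56 and 2.44 with PF68 and 3.20 and 3.02 with SWCNT. The SWCNT arrays were above the PF68 arrays on both days, without overlap. The differences were 0.33 ± 0.12 on day 1 (adjusted p = 0.223) and 0.61 ± 0.12 on day 7 (adjusted p = 0.0632), and their intervals were 0.04 to 0.63 and 0.31 to 0.91. The pair of other Txnrd1 probe sets, both dim, read 1.06 and 0.63 on day 1 but -0.63 and -0.36 on day 7, opposite in direction to the main probe set on day 7.

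Srxn1 (chromosome 2, 152105524 to 152111376), the sulfiredoxin that restores peroxiredoxins, gave 2.05 and 1.94 with PF68 and 2.40 and 2.33 with SWCNT on day 1. On day 7 the values were 1.26 and 1.45 with PF68 and 1.88 and 1.80 with SWCNT. Again the groups did not overlap on either day. The differences were 0.36 ± 0.12 on day 1 (adjusted p = 0.189) and 0.49 ± 0.12 on day 7 (adjusted p = 0.0917). The 3 other Srxn1 probe sets, near or below the array median, differed by 0.62 to 0.87 on day 1 and by 0.01 to 1.00 on day 7, all in the direction of the main one. Of the 6 tested genes with several probe sets, Srxn1 was thus the one whose readings of SWCNT against PF68 were all above 0 on both days.

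Both subunits of glutamate-cysteine ligase were measured. Gclc (chromosome 9, 77754535 to 77794489), the catalytic subunit, gave 3.29 and 3.39 with PF68 and 3.46 and 3.26 with SWCNT on day 1. On day 7 it gave 3.03 and 3.15 with PF68 and 3.20 and 3.03 with SWCNT. The treatments overlapped on both days. The differences were 0.02 ± 0.13 on day 1 (interval -0.31 to 0.35, adjusted p = 0.956) and 0.03 ± 0.13 on day 7 (interval -0.30 to 0.36, adjusted p = 0.920). The second Gclc probe set, above the median on all 8 arrays, differed by 0.31 on day 1 and by -0.38 on day 7. Its arrays were 2.47 and 2.59 with PF68 and 2.78 and 2.91 with SWCNT on day 1, and 1.86 and 1.94 with PF68 and 1.48 and 1.54 with SWCNT on day 7. The 2 probe sets of Gclc thus differ in direction on day 7.

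Gclm (chromosome 3, 122245487 to 122267215), the modifier subunit, which lowers the glutamate requirement of the enzyme, gave 1.69 and 2.03 with PF68 and 2.09 and 2.10 with SWCNT on day 1. On day 7 the PF68 arrays gave -0.34 and 0.99, and the SWCNT arrays 0.83 and 1.10. One PF68 array stood far below its pair, and the groups overlapped on day 7. The differences were 0.23 ± 0.42 on day 1 (adjusted p = 0.821) and 0.64 ± 0.42 on day 7 (interval -0.40 to 1.68, adjusted p = 0.418). Without the low array, PF68 replicate 1 of day 7, the day 7 difference was -0.03. The second Gclm probe set differed by -0.26 on day 1 and -0.16 on day 7.

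Slc7a11 (chromosome 3, 50364936 to 50499087), the cystine and glutamate antiporter, was dim. Its brighter probe set gave -1.04 and -1.17 with PF68 and -0.73 and -1.44 with SWCNT on day 1, and -1.11 and -1.36 with PF68 and -1.32 and -1.49 with SWCNT on day 7. All neighbouring groups overlapped. Without the filter on low signals its differences were 0.02 ± 0.26 on day 1 (adjusted p = 0.985) and -0.17 ± 0.26 on day 7 (adjusted p = 0.775), at a level where the arrays cannot show a low transcript.

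Gsr (chromosome 8, 33653238 to 33698162), glutathione reductase, gave 2.11 and 2.36 with PF68 and 2.14 and 2.16 with SWCNT on day 1. On day 7 it gave 1.70 and 1.46 with PF68 and 2.20 and 1.94 with SWCNT. The treatments overlapped on day 1 and were apart on day 7. The differences were -0.08 ± 0.16 on day 1 (adjusted p = 0.829) and 0.49 ± 0.16 on day 7 (adjusted p = 0.147), and the difference between the days was 0.58 ± 0.23 (adjusted p = 0.227). The second Gsr probe set gave 2.08 and 1.58 with PF68 and 2.27 and 2.36 with SWCNT on day 1, and 0.59 and 0.13 with PF68 and 1.17 and 1.26 with SWCNT on day 7. It differed by 0.49 on day 1 and 0.86 on day 7.

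Osgin1 (chromosome 8, 119425882 to 119446257), an oxidative stress-induced growth inhibitor, had 1 probe set. It gave 1.42 and 1.03 with PF68 and 1.32 and 1.53 with SWCNT on day 1, and 0.42 and 0.81 with PF68 and 1.48 and 0.81 with SWCNT on day 7. On day 7 the lower SWCNT array was level with the higher PF68 array to 2 decimals. The differences were 0.20 ± 0.28 on day 1 (adjusted p = 0.760) and 0.53 ± 0.28 on day 7 (adjusted p = 0.318).

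**Figure D2:**
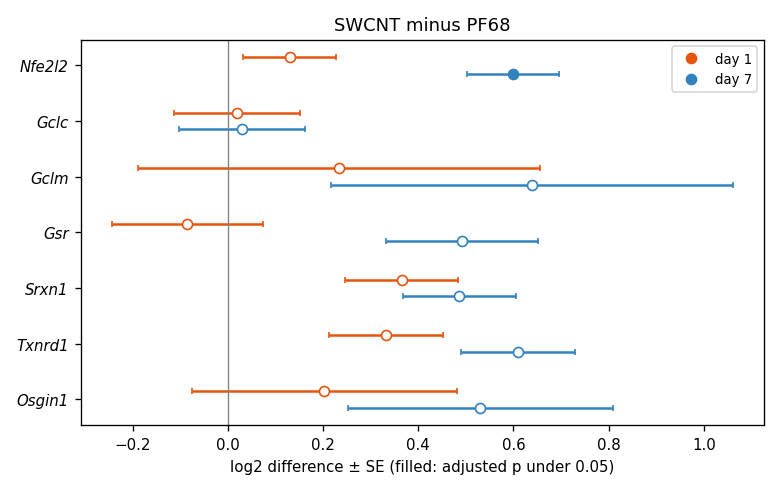
Difference of SWCNT minus PF68 (log2, ± SE) for the 7 tested genes on day 1 and day 7, with filled symbols for an adjusted p under 0.05. Nfe2l2 on day 7, at 0.60, is the only filled symbol; Gclc lies near 0 on both days and Gclm has the widest errors.

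As a group, 0 of the 7 tested members were called on day 1, where 2.17% of all genes were called by limma at an adjusted p under 0.05. At an unadjusted p under 0.05, Txnrd1 and Srxn1 passed, 2 of 7 against 18.6% of all genes. On day 7, 1 of 7 was called, against 2.18% of all genes, and 4 of 7 (Nfe2l2, Txnrd1, Gsr and Srxn1) had an unadjusted p under 0.05, against 23.1%. The median difference of the 7 members was 0.20 on day 1, beside -0.02 over all genes, and 0.53 on day 7, beside 0.02. Differences above 0 were seen for 6 of 7 members on day 1 (47.8% of all genes) and for 7 of 7 on day 7 (52.2%). Both SWCNT arrays lay above both PF68 arrays for 4 members on day 1 (24.6% of all genes) and for 5 on day 7 (28.2%). The 5 include Osgin1 by a narrow margin, 0.8098 with SWCNT against 0.8058 with PF68. For the difference between the days 0 of 7 members were called (2.34% of all genes, 1.41% higher and 0.924% lower), all 7 lay above 0 (53.8%), and 2 of 7, Nfe2l2 and Gsr, had an unadjusted p under 0.05 (20.8%). The members were chosen as related genes and are not independent of each other.

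**Figure D3:**
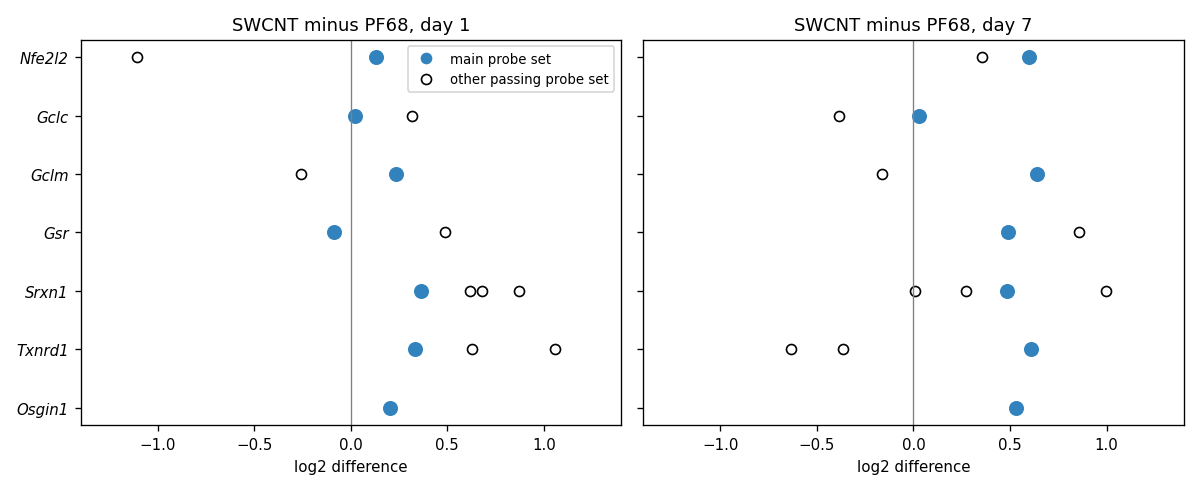
Difference of SWCNT minus PF68 (log2) on day 1 and day 7 for the main probe set (filled) and every other passing probe set (open) of each tested gene. All main probe sets but that of Gsr on day 1 lie above 0, while other probe sets of Nfe2l2 and Gclm on day 1 and of Gclc, Gclm and Txnrd1 on day 7 lie below it.

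More of these genes were called between the days than between the treatments. In PF68 lungs, Txnrd1 fell from day 1 to day 7 by 0.91 ± 0.12 (adjusted p = 0.0109), Gsr by 0.66 ± 0.16 (adjusted p = 0.0421), Nfe2l2 by 0.65 ± 0.10 (adjusted p = 0.0130) and Srxn1 by 0.64 ± 0.12 (adjusted p = 0.0212). The 4 of 7 members called lower compare with 8.86% of all genes called lower and 17.7% called in either direction. Gclm, at -1.53 ± 0.42 (adjusted p = 0.0593), Osgin1, at -0.61 ± 0.28 (adjusted p = 0.188), and Gclc, at -0.25 ± 0.13 (adjusted p = 0.244), did not pass the test. All 7 members had both day 7 arrays below both day 1 arrays, as did 28.6% of all genes. At an unadjusted p under 0.05, 5 of 7 passed, against 34.2%. The median of the members was -0.65 beside 0.04 over all genes. None of the 4 was called without either of the PF68 arrays of day 1, and 2, Nfe2l2 and Txnrd1, were called without PF68 replicate 1 of day 7. Gsr was called under none of the 8 omissions of 1 array.

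In SWCNT lungs the fall from day 1 to day 7 was called for Txnrd1, at -0.63 ± 0.12 (adjusted p = 0.0236), and Srxn1, at -0.52 ± 0.12 (adjusted p = 0.0374). This is 2 of 7 members, against 6.7% of all genes called lower and 16.3% in either direction. Nfe2l2 differed by -0.19 ± 0.10 (adjusted p = 0.245), Gsr by -0.08 ± 0.16 (adjusted p = 0.773), Gclc by -0.24 ± 0.13 (adjusted p = 0.265), Gclm by -1.13 ± 0.42 (adjusted p = 0.128) and Osgin1 by -0.28 ± 0.28 (adjusted p = 0.535). Non-overlapping lower arrays on day 7 were found for 5 of 7 members, against 26.2% of all genes. At an unadjusted p under 0.05, 3 of 7 passed, against 32.8%. The median was -0.28 beside 0.09. Neither call held when any 1 of the day 1 arrays or of the day 7 SWCNT arrays was left out. Among the other probe sets, the second one of Gclc fell by 0.63 in PF68 and 1.33 in SWCNT lungs, and the second one of Gsr by 1.47 and 1.10. These 4 falls were called when every passing probe set was tested, with adjusted p-values of 0.0324, 0.0101, 0.0199 and 0.0377. Dim probe sets of Srxn1 and Nfe2l2 also had called falls in that test. That of Srxn1 fell by 1.13 in PF68 and 1.48 in SWCNT lungs (adjusted p = 0.0199 and 0.0123). That of Nfe2l2 fell by 2.04 in PF68 lungs (adjusted p = 0.0381). Both reached the array median on day 1 arrays alone, and so passed the filter through groups where they are high. In the same test 1 dim probe set of Txnrd1 instead rose by 1.52 in PF68 lungs (adjusted p = 0.0152), against the direction of the main one. It reached the array median on the PF68 arrays of day 7 alone (-0.53 and -0.40). This probe set thus passed the filter through the group where it is high, and its call depends on that filter. In SWCNT lungs it read 0.53. The other dim Txnrd1 probe set read 0.80 in PF68 and -0.89 in SWCNT lungs. A further Srxn1 probe set read 1.06 and 0.39, opposite to the main one, and the last one -0.86 and -0.74. The second Gclm probe set read -0.60 and -0.51. None of these further readings was called.

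The 2 comparisons of days and the 2 of treatments share arrays, so a low PF68 group on day 7 enters both the fall with time and the rise with SWCNT. The order of group means seen for Nfe2l2 (SWCNT day 1, PF68 day 1, SWCNT day 7, PF68 day 7, from high to low) was that of 6 of the 7 members, Gsr being the exception, and of 8.34% of all genes. For 3 members, Nfe2l2, Srxn1 and Txnrd1, no neighbours in that order overlapped, as for 1.84% of all genes. The order was read from Nfe2l2, which is itself counted here, so these counts are not a test. A measure of RNA integrity followed the same order in reverse. The 3′ probe sets of beta-actin exceeded its 5′ probe sets by 1.34 ± 0.033 with SWCNT and 2.02 ± 0.023 with PF68 on day 1 (SD, n = 2). On day 7 the excess was 2.97 ± 0.035 with SWCNT and 3.27 ± 0.029 with PF68. For Gapdh the same quantity was 0.716 ± 0.051, 1.04 ± 0.013, 2.21 ± 0.15 and 2.41 ± 0.16. A larger excess is the usual sign of shorter or more degraded RNA, and its part in the levels of these genes was not tested. Day 7 differs from day 1 in both this measure and time, which cannot be told apart here. Within each day the treatments differ in it too, for beta-actin without overlap of arrays, while the Gapdh arrays overlap on day 7. Treatment and this measure therefore cannot be told apart either.

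**Figure D4:**
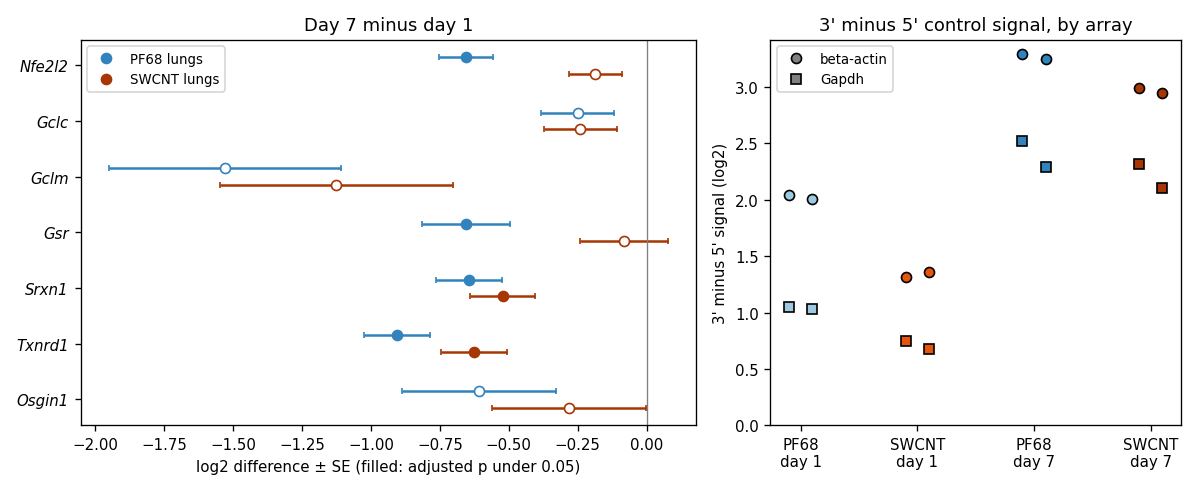
Left, difference of day 7 minus day 1 (log2, ± SE) for the 7 tested genes in PF68 and SWCNT lungs, filled where the adjusted p is under 0.05; right, the excess of 3′ over 5′ signal for beta-actin and Gapdh on each array. All 14 differences lie below 0, and the 3′ excess is higher on every day 7 array than on any day 1 array.

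All arrays had the same sorted values, so each difference is relative to the other probe sets of an array. Scaled instead to the 18 hybridization spike probe sets, the median difference of all genes moved to -0.24 on day 1 and 0.55 on day 7, and that of Nfe2l2 to -0.09 and 1.13. This scaling adds 1 constant to every gene of an array, so it shifts all genes alike.

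Markers of alveolar type 2, alveolar type 1 and club cells, the defining cells of the labelled tissue, were high on every array, with list means from 5.07 to 6.26. Arrays correlated at 0.914 to 0.940 within groups and 0.891 to 0.931 between groups. Beside the day 7 values stand markers of recruited monocytes and macrophages, whose list mean over 11 tested genes was 2.42 to 2.53 with SWCNT and 0.73 to 0.78 with PF68. Of the 11, 5 were higher and 0 lower by the test. Of the list's defining markers, Arg1 rose by 3.18 ± 0.29 (adjusted p = 0.0191), and Ccr2 differed by -1.10 ± 0.47 (adjusted p = 0.234). The remaining defining marker, Ly6c2, lay below the array median on every array, so Arg1 alone among them was higher. Alveolar macrophage markers were at 3.359 to 3.408 with SWCNT and 2.999 to 3.117 with PF68 on day 7, with 1 of 11 called higher and 0 lower. Neutrophil markers were at 1.51 to 1.64 with SWCNT and 2.45 to 2.50 with PF68, with 5 of 10 called lower and 1 higher. Fibroblast markers were at 4.26 with SWCNT and 3.75 with PF68 on day 7, with 4 of 8 called higher. Club cell markers were at 5.78 to 5.80 with SWCNT and 6.17 to 6.21 with PF68 on day 7, with 2 of 10 called lower. Alveolar type 1 markers were at 5.07 to 5.10 and 5.26 to 5.32, with 1 of 7 called lower. Alveolar type 2 markers were at 6.10 to 6.15 and 6.00 to 6.10, with 1 of 8 called higher. In whole tissue, fewer cells of a type and less RNA per cell cannot be told apart, and the part of these cells in the members' levels was not tested. On day 1, skeletal muscle markers were at 2.99 to 3.11 with SWCNT and at -1.13 to -0.83 with PF68, with 8 of 10 called higher. Squamous epithelium markers were at 1.37 to 1.38 and -1.69 to -1.39, with 4 of 8 called higher. The muscle and squamous list means lay below the array median in every other group. Such genes can pass the filter through the SWCNT arrays of day 1 alone, which favours their calls here and between the days. Adipocyte markers were at 3.74 to 3.76 with SWCNT and 1.47 to 1.70 with PF68 on day 1, with 3 of 4 called higher, and T and NK cell markers at -0.17 to -0.09 and 0.77 to 0.79, with 2 of 9 called lower. On day 7 the adipocyte markers were at 1.46 to 1.48 with SWCNT and 2.54 to 2.58 with PF68, with 1 of 4 called lower. Between the days, in SWCNT lungs, 10 of 10 skeletal muscle, 4 of 4 adipocyte, 4 of 8 squamous and 7 of 10 neutrophil markers were called lower on day 7, and 8 of 11 recruited monocyte and macrophage markers higher. In PF68 lungs 2 of 4 adipocyte markers were called higher on day 7 and 0 lower. Fibroblast markers were lower for 6 of 8 genes in PF68 and 4 of 8 in SWCNT lungs, and endothelial markers for 4 of 9 in each. The part of these tissues in the day 1 and day 7 values and in the changes between days was not tested either.

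The other genes of the pathway were 83 in 6 lists, of which 75 were tested. Against PF68, 72 of the 75 were not called on day 1 and 71 were not called on day 7. On day 1, 3 of the 75 were called higher and 0 lower, beside 0.931% and 1.23% of all genes. On day 7, 1 was called higher and 3 lower, beside 1.4% and 0.78% of all genes. Scaled to the spikes, the day 7 counts became 35 higher and 1 lower, with the median of all genes at 0.55, and with the filter on all 8 arrays they were 4 higher and 9 lower of 71 tested. None of the day 1 and day 7 calls held when any 1 of the 8 arrays was left out. Among the regulators and partners of Nrf2, 0 of 11 were called on either day; Bach1, a repressor that competes for the same elements, had the largest difference on day 1 (-0.55 ± 0.16, adjusted p = 0.160), and Nfe2l3, a relative of Nfe2l2, on day 7 (-0.56 ± 0.68, adjusted p = 0.671). Their second probe sets read 0.19 for Bach1 on day 1 and 0.25 for Nfe2l3 on day 7, opposite to the main ones. Keap1 differed by -0.18 ± 0.11 on day 1 and -0.38 ± 0.11 on day 7 (adjusted p = 0.459 and 0.125), and its second probe set read 1.03 on day 7. The medians of this list were 0.06 on both days.

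Of 14 tested genes of glutathione synthesis, transport and breakdown, 0 were called on day 1, where Ggt6, a gamma-glutamyltransferase, had the largest difference (-0.61 ± 0.48, adjusted p = 0.569). On day 7, 1 was called. This was Cbs, cystathionine beta-synthase of the transsulfuration route to cysteine, which fell by 1.27 ± 0.13 (adjusted p = 0.0227). Its arrays gave -0.03 and 0.22 with PF68 and -1.21 and -1.14 with SWCNT on day 7. On day 1 they gave -1.03 and -1.09 with PF68 and -0.68 and -0.74 with SWCNT. Only the PF68 arrays of day 7 reached the array median. Cbs thus passed the filter through the group where it is high, and its call depends on that filter. The list's medians were 0.03 and -0.01. Among 11 glutathione peroxidases, glutaredoxins and related enzymes, Glo1, the glyoxalase that uses glutathione to clear methylglyoxal, rose on day 1 by 0.70 ± 0.11 (adjusted p = 0.0421). Its arrays were 3.50 and 3.48 with PF68 and 4.25 and 4.14 with SWCNT, and 3 other probe sets of Glo1 read 0.50 to 1.46. On day 7 its arrays were 4.26 and 4.18 with PF68 and 4.08 and 3.98 with SWCNT. The PF68 arrays of day 1 thus stood below those of every other group.

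On day 7 Glrx, the cytosolic glutaredoxin that removes glutathione from proteins, rose by 1.09 ± 0.11 (adjusted p = 0.0227), from 1.88 and 2.01 with PF68 to 2.99 and 3.08 with SWCNT. Its second probe set read 0.96. On day 1 Glrx gave 2.87 and 2.79 with PF68 and 3.14 and 3.21 with SWCNT. The PF68 arrays of day 7 thus stood below those of every other group. Also on day 7 Gpx2, a glutathione peroxidase of epithelia, fell by 0.94 ± 0.13 (adjusted p = 0.0392), from 1.70 and 1.98 to 0.88 and 0.93. The remaining 10 genes of that list on day 1 and 9 on day 7 were not called, and the list's medians were 0.04 and -0.13.

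Of 12 thioredoxins and peroxiredoxins and of 10 genes of NADPH supply, 0 were called on either day. Txnrd3, a thioredoxin reductase known from testis, differed by -0.42 ± 0.12 on day 1 (adjusted p = 0.142), and Txnrd2, the mitochondrial one, by -0.58 ± 0.24 on day 7 (adjusted p = 0.222). The other Txnrd3 probe sets read 0.27 and -0.41 on day 1, and the 3 other Txnrd2 probe sets read 0.32 to 0.58 on day 7, all opposite to the main one. In the NADPH list the malic enzyme Me1 differed by 1.11 ± 0.30 on day 1 (adjusted p = 0.136), and transketolase, Tkt, by -0.58 ± 0.10 on day 7 (adjusted p = 0.0531). The medians were -0.15 and 0.07 for the thioredoxins and 0.10 and -0.08 for NADPH supply.

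Among 17 other classical targets, Akr1b8, an aldo-keto reductase, and Gstm1, a glutathione S-transferase, passed as higher on day 1. Akr1b8 gave 2.60 and 2.76 with PF68 and 3.43 and 3.63 with SWCNT, a difference of 0.85 ± 0.12 (adjusted p = 0.0380). On day 7 it gave 1.66 and 1.68 with PF68 and 2.43 and 2.38 with SWCNT, a difference of 0.74 ± 0.12 just short of the threshold (adjusted p = 0.0501). Gstm1 gave 4.65 and 4.73 with PF68 and 5.38 and 5.42 with SWCNT on day 1, a rise of 0.71 ± 0.11 (adjusted p = 0.0451). On day 7 it gave 4.67 and 4.79 with PF68 and 3.87 and 4.003 with SWCNT, a fall of 0.79 ± 0.11 (adjusted p = 0.0394), so it was the only called gene of the 6 lists with calls on both days. The Gstm1 probe set can bind related transcripts, and 3 other Gstm1 probe sets read between -0.24 and 0.29 on day 1 and between -0.83 and -0.36 on day 7.

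Hmox1 and Nqo1, 2 targets often used as readouts of Nrf2, did not pass the test. Hmox1, heme oxygenase 1, gave 2.51 and 2.75 with PF68 and 2.25 and 2.30 with SWCNT on day 1, and 1.60 and 1.47 with PF68 and 1.46 and 1.65 with SWCNT on day 7. Its differences were -0.36 ± 0.14 (adjusted p = 0.249) and 0.02 ± 0.14 (adjusted p = 0.952). Nqo1, a quinone reductase, differed by -0.22 ± 0.39 on day 1 and -0.69 ± 0.39 on day 7 (adjusted p = 0.823 and 0.351). Nqo1 was dim on day 7, with -0.56 and 0.03 with PF68 and -0.55 and -1.35 with SWCNT, the last below the array median. Blvrb of the same list was not called either, but its SWCNT arrays lay above its PF68 arrays on both days. It gave 2.55 and 2.53 with PF68 and 3.11 and 3.09 with SWCNT on day 1. On day 7 it gave 1.61 and 1.56 with PF68 and 2.14 and 2.48 with SWCNT. Hmox1, Nqo1 and Blvrb were picked for naming after their values were seen. The list's medians were 0.09 and -0.18.

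**Figure D5:**
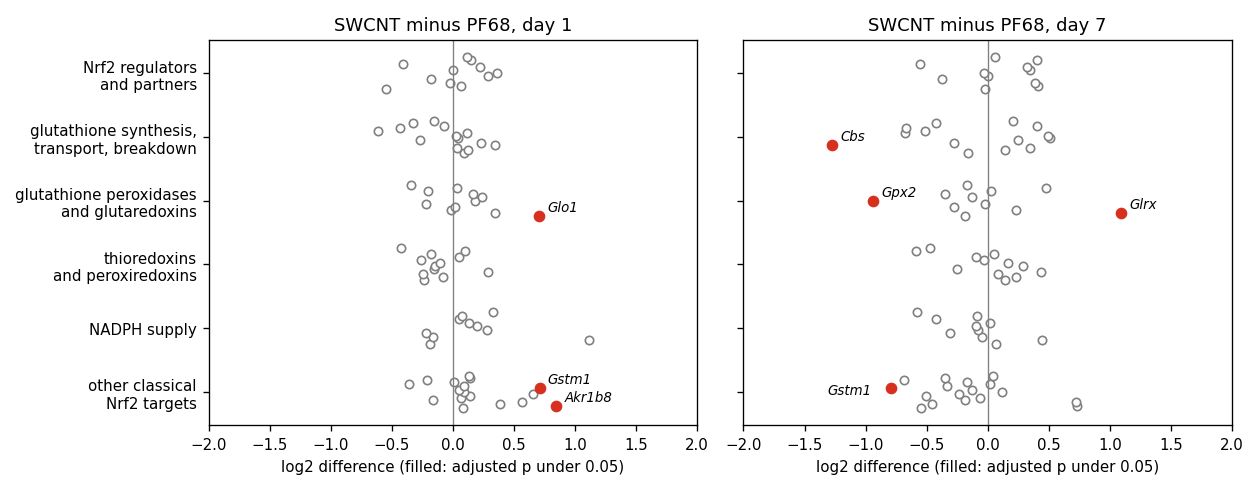
Difference of SWCNT minus PF68 (log2) on day 1 and day 7 for the 75 tested genes of 6 pathway lists, 1 dot per gene, filled and named where the adjusted p is under 0.05. Glo1, Gstm1 and Akr1b8 are filled on the right side on day 1, and Glrx on the right and Cbs, Gpx2 and Gstm1 on the left on day 7.

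Between the days, more of the 75 pathway genes were called: 13 higher and 10 lower in PF68 lungs, and 4 higher and 12 lower in SWCNT lungs. The shares of all genes were 8.86% in each direction in PF68 lungs, and 9.59% higher and 6.7% lower in SWCNT lungs. Scaled to the spikes the counts were 2 higher and 43 lower in PF68 lungs and 11 higher and 9 lower in SWCNT lungs, so the balance of directions turned with the scaling. Without either PF68 array of day 1, 0 were called in PF68 lungs. In SWCNT lungs, 0 higher and 2 lower were left without either SWCNT array of day 7, and 0 higher and 3 or 4 lower without 1 of the SWCNT arrays of day 1. In PF68 lungs the 3 regulators called, Sqstm1 (-1.07 ± 0.14, adjusted p = 0.0109), Mafk (-0.78 ± 0.15, adjusted p = 0.0223) and Cul3 (-0.71 ± 0.15, adjusted p = 0.0280), were all lower on day 7. Sqstm1 encodes p62, an adaptor that binds Keap1, Mafk a partner of Nrf2, and Cul3 the ligase scaffold of Keap1. Other Cul3 probe sets read between -0.45 and 0.39. In NADPH supply 4 of 10 genes were called higher and 0 lower in PF68 lungs, namely Tkt (1.03 ± 0.10, adjusted p = 0.00851), Rpia (0.83 ± 0.15, adjusted p = 0.0205), Idh1 (0.63 ± 0.12, adjusted p = 0.0222) and Pgd (0.50 ± 0.13, adjusted p = 0.0482). The second Idh1 probe set read -0.51, opposite to the main one, and the 3 other Pgd probe sets read -0.40, 0.52 and 0.73. The second Tkt probe set read 0.39.

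Glutathione synthetase, Gss, which completes the tripeptide, was called higher on day 7 in both PF68 (1.10 ± 0.18, adjusted p = 0.0163) and SWCNT lungs (0.86 ± 0.18, adjusted p = 0.0297), whereas the main probe sets of Gclc and Gclm lay below their day 1 values. Its second probe set read 0.68 and 0.08. Gpx2 fell by 0.94 ± 0.13 in PF68 and 2.06 ± 0.13 in SWCNT lungs (adjusted p = 0.0115 and 0.00383). Among the classical targets, beside the falls of muscle, adipocyte and neutrophil markers given above, 7 of 17 were called lower in SWCNT lungs and 0 higher. The largest of these falls was that of Gstm1, by 1.47 ± 0.11 (adjusted p = 0.00514), followed by Akr1b8, by 1.13 ± 0.12 (adjusted p = 0.00736). Hmox1 was called lower in both treatments, by 1.10 ± 0.14 in PF68 and 0.72 ± 0.14 in SWCNT lungs (adjusted p = 0.0101 and 0.0234).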

How the data were processed

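Biotin-labelled total RNA was hybridized to 1-colour Affymetrix arrays, per the labels' protocols. The authors deposited 1 value per probe set and array, taken here as log2. The submitters' processing notes name RMA; its version, the base of the logarithm and any offset were not stated. The values ran from -5.88 to 8.31, and all arrays held the same sorted values (SD 0). Of 45101 probe sets, 64 were controls and 8 had a missing value; of the rest 34939 had 1 gene symbol in the platform annotation, 931 several and 9159 none, and 34735 of those with 1 symbol were found in RefSeq (GRCm38.p6). No background flags were used, and having 2 arrays a group limits the precision.

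Probe sets below the array median on 7 or 8 arrays were not tested, and a gene was read from its probe set with the highest mean. limma 3.58.1 (R 4.3.3) fitted the 4 group means over the 8 arrays (4 residual and 1.81 prior degrees of freedom), with Benjamini-Hochberg adjustment over 13854 genes and a threshold of 0.05; ± after a difference is its SE. The procedure was tested on simulated data. Figures were drawn with matplotlib 3.10.9. Named were all members, up to 4 called genes per pathway list and day by size or, with none called, the largest difference, and for called members the 3 genes of most similar group means. Other names were chosen after their values were seen. Members and lists were chosen with earlier results of these data known. Alternatives covered the filter, probe set choice, scaling, variance model, weights, arrays used, replicate block and single arrays; the pathway genes' alternatives were chosen after seeing the data.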

Additional observations from a re-analysis of the deposited data

Results flagged for a closer look

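For 4 pathway genes the effect of SWCNT differed between the days by a test of the difference itself (limma, adjusted over all genes); values are the day 7 difference minus the day 1 difference on the log2 scale. It was -1.505 for Gstm1 (adjusted p = 0.0225), which was 0.71 on day 1 and -0.79 on day 7, and its 3 other probe sets read -0.32 to -1.004. It was -1.62 for Cbs (adjusted p = 0.0230), with 0.35 on day 1 and -1.27 on day 7. All Cbs arrays but those of PF68 on day 7 lay below the array median, so its day 1 difference compares signals below it. Cbs passed the filter through that group, where it is high, and its call here also depends on that filter. The difference of the effects was -1.12 for Gpx2 (adjusted p = 0.0483), with 0.18 on day 1 and -0.94 on day 7. It was -0.91 for Tkt (adjusted p = 0.0457), with 0.33 and -0.58, neither of them called; its arrays were 5.48 and 5.44 with PF68 and 5.75 and 5.83 with SWCNT on day 1, and 6.52 and 6.47 with PF68 and 5.91 and 5.92 with SWCNT on day 7. In all, 0 of the 75 tested pathway genes were called above 0 in this difference and 4 below, Cbs among them, beside 1.41% and 0.924% of all genes. Scaled to the spikes, which shifts all genes alike (median 0.80), 39 were above and 2 below. The 4 calls lie near the threshold: without the filter or with the replicate block 0 held, and without single arrays 0 to 1. Over the alternatives run the adjusted p ranged from 2.0e-05 to 0.117 for Gstm1 (called in 6 of 18), 0.0215 to 0.123 for Cbs (6 of 17), 0.00376 to 0.198 for Gpx2 (3 of 18) and 0.000114 to 0.391 for Tkt (4 of 18). Groups of 2 arrays are too small for a test of single outlying arrays.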

How the results depend on the processing

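On day 1, 0 members were called under all alternatives run. On day 7 the count was 0 in place of 1 without the filter (Nfe2l2 adjusted p = 0.105), with the mean of probe sets, the most variable probe set, every probe set tested, robust variances (0.0529), array weights (0.0671), only the 4 arrays compared, or without any 1 array (0 to 0). It was 3 with a filter on all 8 arrays or a mean-variance trend (Nfe2l2, Srxn1 and Txnrd1), and 6 scaled to spikes, where the median gene moved to 0.55. For the difference between days it was 1 with the trend, 5 scaled to spikes and 0 to 0 without single arrays. For PF68 over time (4) it was 2 with the mean of probe sets, 0 with only the 4 arrays, 7 scaled to spikes and 0 to 4 without single arrays. For SWCNT over time (2) it was 0 without the filter or with only the 4 arrays, 1 with the mean of probe sets, every probe set tested or spikes, and 0 to 3 without single arrays. Same-numbered arrays were not paired (correlations of deviations -0.0061 to 0.011); with the replicate block the counts were 0, 0, 0, 3 and 1. Fewer arrays leave fewer degrees of freedom; other causes were not tested.

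Directions turned in 36 of 861 alternative values of single genes, and all 36 were values of members. The 861 also hold values of called pathway genes. Many alternatives change only the filter, the variance model or an array outside the comparison, and leave the difference itself as it was. The share is therefore not a measure of how stable the directions are. With the mean of probe sets these were -0.49 (Nfe2l2), -0.012 (Gclm) and 0.20 (Gsr) on day 1, -0.18 (Gclc) and -0.13 (Txnrd1) on day 7, -0.34 (Gclc), -0.19 (Srxn1) and -0.80 (Txnrd1) between days, and 0.47 (Txnrd1) in PF68 over time. With the most variable probe set they were -1.11 (Nfe2l2) and 0.49 (Gsr) on day 1, -0.38 (Gclc) and -0.36 (Txnrd1) on day 7, -0.70 (Gclc), -0.34 (Srxn1) and -0.99 (Txnrd1) between days, and for Txnrd1 1.52 in PF68 and 0.53 in SWCNT over time. The Nfe2l2 values with the mean and with the most variable probe set draw on its dim second probe set. Scaled to spikes the turned values were -0.088 (Nfe2l2), -0.20 (Gclc) and -0.015 (Osgin1) on day 1 and 0.070 (Gsr) in SWCNT over time. Without single arrays, Gclc ranged from -0.081 to 0.12 on day 1, -0.059 to 0.12 on day 7 and -0.093 to 0.11 between days. Gsr ranged from -0.21 to 0.039 on day 1 and -0.21 to 0.050 in SWCNT over time, Gclm from -0.027 to 1.304 on day 7 and -0.26 to 1.07 between days, and Osgin1 from -0.0079 to 0.66 between days and -0.62 to 0.053 in SWCNT over time. The day 1 and day 7 calls of pathway genes were all lost without the filter, with the replicate block, with only the 4 arrays and without any 1 array. Their calls for the difference between days were 0 without the filter or with the replicate block and 0 to 1 without single arrays.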
